A study of Mus musculus with 13 samples.

Results

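The subject here is a set of 39 mouse genes that type I interferon is known to induce as part of the antiviral defence, measured by bulk RNA sequencing in cultured stem cells. The members were chosen by name, and all 39 were found among the 38377 gene identifiers of the deposited count table. They were sorted by what their proteins do: 5 nucleic acid sensors, 3 signalling transcription factors, 4 genes of ISG15 conjugation and its feedback, 4 IFIT proteins, 4 OAS family members, 8 antiviral effectors, 3 guanylate-binding proteins, 3 genes of the PARP9-DTX3L group and 5 other induced genes. The study compared wild-type cells with cells that carry a deletion of Xist, the noncoding RNA that silences an X chromosome in female cells. All lines are female. Extraembryonic endoderm (XEN) cells are stem cells of the lineage that forms the yolk sac, and were grown with serum. They were wild type (2 libraries), deleted for the paternal Xist allele (dXist, 3), wild type exposed to 20 uM 5-aza-2'-deoxycytidine (Aza, 2) or dXist exposed to the same dose (2). Aza is an inhibitor of DNA methyltransferases. The labels give the treated dXist libraries the same names as dXist libraries 1 and 2, and give library 3 no treated counterpart. Epiblast stem cells (EpiSC) are primed pluripotent cells, grown on matrigel with FGF2 and Activin. They comprised 2 wild-type libraries and 2 with a heterozygous deletion of Xist (dXist), and none was treated with Aza. The sources used here do not say how long the exposure to Aza lasted, or whether replicates came from separate clones or cultures. The p-values therefore measure the spread between these libraries, which may be technical.

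Interferon-stimulated genes are switched on when RNA or DNA of a virus, or of the cell itself, binds a sensor such as the RIG-I protein (encoded by Ddx58) or MDA5 (Ifih1), and the cell makes interferon. Interferon binds its receptor, and the kinases JAK1 and TYK2 then activate STAT2, which acts with IRF9 in a complex that binds the interferon-stimulated response element (ISRE) in promoters. Many sensors and factors of the pathway are induced by it too, so that the response can amplify itself, while USP18 dampens signalling at the receptor. Inhibitors of DNA methylation are known to induce such genes in some cells, and pluripotent cells are known for a weak interferon response.

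Library depth ran from 5848454 to 35247432 counts. Levels are given in CPM, read counts normalised to the scaled library size, and 3 counts in a library came to between 0.084 and 0.495 CPM. The libraries were of 2 kinds. RNAs without poly(A) tails (mt-Rnr1, mt-Rnr2 and Rn7sk) took 10.4% to 13.5% of counts in both Aza-treated wild-type XEN libraries and in library 2 of each EpiSC group, here called total-like. They took 0.0152% to 0.279% in the other 9 libraries, called polyA-like. Xist stood at 1560 and 1701 CPM in wild-type XEN, at 2.36, 1.21 and 5.02 CPM in dXist XEN, at 1614 and 1185 CPM in treated wild-type XEN and at 13.3 and 233 CPM in treated dXist XEN. In EpiSC it stood at 835 and 197 CPM in wild-type cells against 0.448 and 0.261 CPM in dXist. The summed level of 10 XEN markers lay between 22231 and 82265 CPM in XEN and between 679 and 947 CPM in EpiSC, and that of 10 epiblast markers between 47.7 and 230.2 CPM in XEN and between 845 and 1348 CPM in EpiSC.

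The DNA before the start of these genes is shown first because it carries the motif through which interferon acts. Promoters of RefSeq (build GRCm38.p6) were given for 29 of the 39 members. In the 250 bases before the start, the ISRE core TTTCNNTTTC, searched on both strands, occurred in 12 of the 29 (41.4%), against 3.04% of all 27025 promoters of the same length. The gamma-activated sequence TTCNNNGAA (GAS) occurred in 6 of the 29 (20.7%), against 7.18% of all promoters, and 3 of the 29 held both motifs. In Bst2 an ISRE and a GAS match share 3 bases. A match describes the letters and says nothing of binding. The 5 promoters printed here each held at least 2 ISRE matches, and Ddx58, with no exact match in its 250 bases, is given for contrast. Its window does hold gaaacgaaa, in which the GAAA repeats lie closer together than the core allows. Each line is the 150 bases that end before the start of the gene, read 5′ to 3′ on the strand of the gene, with ISRE matches of either strand in capitals. Isg15 (chr4:156200819-156200968, minus strand) has 3 overlapping matches, which begin 78, 72 and 66 bases before the start. Ifit1 lies at chr19:34640739-34640888 (plus strand), Oas1a at chr5:120907526-120907675 (minus), Bst2 at chr8:71537473-71537622 (minus), Gbp3 at chr3:142559894-142560043 (plus) and Ddx58 at chr4:40239826-40239975 (minus).
Isg15: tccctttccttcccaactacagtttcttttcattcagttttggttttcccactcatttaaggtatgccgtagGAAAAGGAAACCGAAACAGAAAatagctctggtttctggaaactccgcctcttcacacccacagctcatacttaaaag
Ifit1: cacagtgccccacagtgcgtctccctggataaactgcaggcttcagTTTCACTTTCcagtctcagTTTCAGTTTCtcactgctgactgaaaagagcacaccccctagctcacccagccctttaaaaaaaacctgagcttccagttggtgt
Oas1a: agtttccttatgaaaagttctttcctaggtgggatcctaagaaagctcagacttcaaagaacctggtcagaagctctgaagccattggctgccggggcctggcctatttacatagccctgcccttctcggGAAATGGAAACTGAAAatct
Bst2: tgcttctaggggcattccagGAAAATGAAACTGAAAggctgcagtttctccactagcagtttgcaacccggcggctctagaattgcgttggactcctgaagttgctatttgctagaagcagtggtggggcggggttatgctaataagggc
Gbp3: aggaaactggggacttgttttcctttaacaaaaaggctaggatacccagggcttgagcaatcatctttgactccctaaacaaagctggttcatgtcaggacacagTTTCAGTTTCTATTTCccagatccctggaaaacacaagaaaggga
Ddx58: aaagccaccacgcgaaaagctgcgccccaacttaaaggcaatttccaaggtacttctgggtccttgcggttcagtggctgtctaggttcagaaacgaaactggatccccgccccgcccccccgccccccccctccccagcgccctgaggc

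In XEN cells without Aza, deletion of the paternal Xist did not set the 3 dXist libraries apart together: library 3 stood far above the wild type and libraries 1 and 2 did not. In library 3, 37 of the 39 members were above both wild-type libraries (31.4% of all genes were) and 1, Ifit2, was below both (28.8%). In library 1, 17 members were above both wild-type libraries (36.1% of all genes) and 17 below both (33.9%). In library 2, 8 were above (35.5%) and 25 below (34.4%). The median difference of the members from the wild-type mean, on the log2(CPM + 0.2) scale, was -0.01 in library 1, -0.48 in library 2 and 1.83 in library 3. The members summed to 574 and 700 CPM in the wild type, to 418 and 401 CPM in dXist libraries 1 and 2 and to 1770 CPM in library 3. These 5 libraries held 27917680 to 35247432 counts each. In bulk RNA, a different number of expressing cells and a different amount of RNA per cell cannot be told apart.

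**Figure D1:**
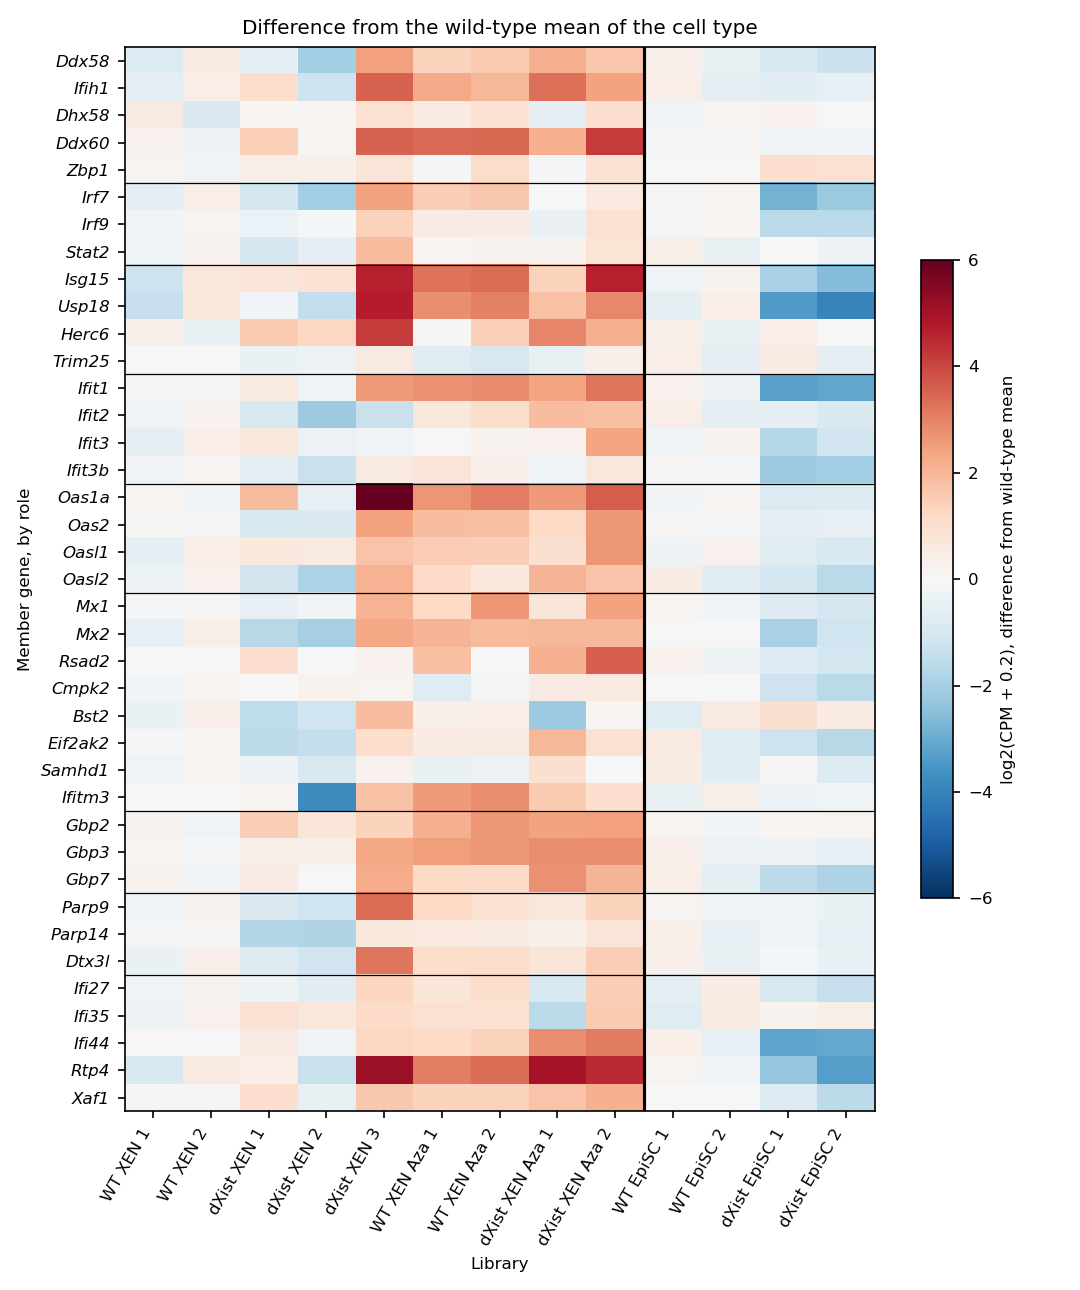
Level of each of the 39 members (rows, ordered by role, with lines between roles) in each of the 13 libraries (columns) as the difference in log2(CPM + 0.2) from the mean of the 2 wild-type libraries of the same cell type; red is above and blue below that mean. The column of dXist XEN library 3 is red for 37 members above both wild-type libraries, as are most rows of the treated XEN libraries, while the dXist EpiSC columns are mostly blue.

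Library 3 exceeded dXist libraries 1 and 2 in 34 of 39 members (40.1% of all genes did so). It held over 2 times the higher of the other dXist libraries in 28 members (14.5% of all genes), and over 4 times in 23 (6.86%). The ubiquitin-like protein ISG15, which is joined to other proteins during infection, showed it plainly. Isg15 (chromosome 4, 156199424 to 156200818) stood at 0.236 and 1.44 CPM in wild-type cells against 1.53, 1.68 and 26 CPM in dXist libraries 1 to 3. Usp18, whose enzyme removes ISG15 and damps the receptor, stood at 0.337 and 2.08 CPM in wild-type cells against 1.06, 0.312 and 37.3 CPM in dXist. For both genes libraries 1 and 2 lay near the wild-type levels and library 3 far above all other untreated XEN libraries. Herc6, a ligase for ISG15 in the mouse, was at 0.236 and 0.0684 CPM in wild-type cells against 0.832, 0.624 and 6.31 CPM in dXist, so that here all 3 dXist libraries were above both wild-type libraries, although 23.8% of its 50-base words also occur in the gene model Gm45193. Such a lack of overlap in this direction was found for 7 members in all (13.4% of all genes), the others being Zbp1, Isg15, Oasl1, Gbp2, Gbp3 and Ifi35. Trim25, the ligase that activates RIG-I, was at 233 and 232 CPM against 175, 189 and 334 CPM.

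The 5 sensors and the 3 signalling factors were also highest in library 3 among the untreated XEN libraries. Ddx58 held 5.87 and 15.1 CPM in wild-type cells, 6.99 and 2.38 CPM in dXist libraries 1 and 2 and 58.2 CPM in library 3. Ifih1 was at 0.169 and 0.547 CPM, then at 0.965, 0.039 and 6.27 CPM. The helicase gene Ddx60 had 3 counts in the wild type in all and 92 in dXist, a ratio of 21.6 with an exact 95% counting interval of 7.16 to 106.5, and its dXist libraries held 0.466, 0.078 and 2.71 CPM. Dhx58 (LGP2) and Zbp1, a sensor of Z-form nucleic acid, differed less, with 1.64 and 0.463 CPM in library 3 against at most 1.21 and 0.236 CPM in the wild type. Among the factors, Irf7, a driver of interferon transcription, was at 4.35 and 8.58 CPM in wild-type cells against 2.99, 1.4 and 35 CPM in dXist. Stat2 was at 49.4 and 68.4 CPM against 28.8, 40.8 and 221 CPM. In both factors library 3 was the highest and the other dXist libraries the lowest of the 5. Irf9 was at 33.8 and 42.7 CPM against 29.9, 34.9 and 98.6 CPM.

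The OAS enzymes make the oligoadenylates that activate RNase L, and Oas1a had the largest fold of the tested members. Oas1a (chromosome 5, 120896256 to 120907521) stood at 0.472 and 0.342 CPM in wild-type cells against 2.06, 0.234 and 37.8 CPM in dXist. Oas1a shares 57.6% of its 50-base words with other genes, chiefly Oas1g, so its counts are uncertain. Rtp4, a chaperone for membrane proteins with antiviral action, was at 0.539 and 1.88 CPM in wild-type cells against 1.63, 0.351 and 50.2 CPM in dXist. Library 3 stood apart again, by more than 10 times, and Rtp4 was among the 15 members that were higher in library 3 than in all other 8 XEN libraries, treated ones included (9.04% of all genes were). Bst2, the tether of budding virus particles, was at 64.5 and 103 CPM against 28.8, 36.6 and 299.7 CPM. Eif2ak2 (PKR) was at 53.7 and 64 CPM against 20, 22 and 123 CPM. Parp9 and Dtx3l, whose products form a complex and whose exons overlap by 458 bases on opposite strands, were at 74.9 and 44.4 CPM in library 3 and at no more than 8.24 and 5.78 CPM in the other 4 untreated libraries. The sources used here do not name the counting strand, so reads of this overlap cannot be assigned.

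The exceptions in library 3 were few. Ifit2, which binds viral RNA, was at 1.62 and 2.29 CPM in wild-type cells against 0.898, 0.273 and 0.641 CPM in dXist, the member in which all dXist libraries were below the wild type (13.8% of all genes). Its relative Ifit1 was at 0.405 and 0.342 CPM in wild-type cells against 0.632, 0.273 and 3.21 CPM in dXist. Ifit3 was at 0.107 CPM in library 3, within the 0.0337 to 0.366 CPM of the other untreated libraries. Ifit3 and Ifit3b share 51.2% and 45% of their 50-base words with other genes, mostly with each other. Rsad2 (viperin) had no count in the wild type and 7 counts over the dXist libraries, which allows a dXist level at least 1.54-fold higher. Of these 7 counts 6 were from library 1, and without it no bound can be given. Cmpk2, its neighbour, was at 0.178 CPM in library 3 against 0.101 to 0.195 CPM in the others. Gbp2, a guanylate-binding protein of cell-autonomous immunity, was at 1.53 CPM in library 3 and 1.7 CPM in library 1, and Gbp3 was at 5.17 against 1.2 CPM.

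The other members are given as library 3 against the range of the other 4 untreated XEN libraries. In the OAS family, Oas2 was at 2.46 CPM (0.0665 to 0.337), Oasl1 at 0.784 CPM (0 to 0.266) and Oasl2 at 63.6 CPM (3.9 to 17.8). Among the effectors Mx1 was at 2 CPM (0.166 to 0.342), Mx2 at 13.9 CPM (0.507 to 3.45), the nucleotide hydrolase Samhd1 at 33.6 CPM (14.4 to 31.4) and Ifitm3 at 18.3 CPM (0.195 to 5.92). Library 3 lay above each of these ranges, narrowly so for Samhd1. Ifit3b was at 0.535 CPM (0 to 0.376), Gbp7 at 0.891 CPM (0 to 0.133) and the ADP-ribosyltransferase gene Parp14 at 50.5 CPM (9.01 to 33.4). Ifi27 was at 56.4 CPM (14.2 to 26.6), Ifi35 at 9.76 CPM (3.37 to 7.88), Ifi44 at 0.356 CPM (0 to 0.133) and Xaf1 at 48.7 CPM (11.7 to 31.9). Each of these also stood highest in library 3.

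**Figure D2:**
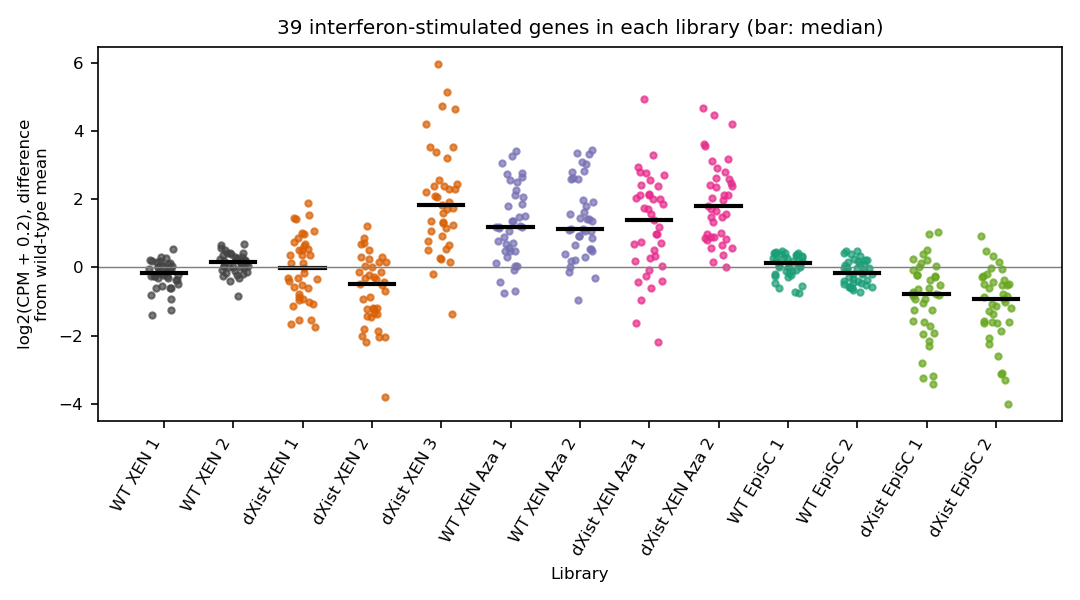
Each point is a member in a library, as the difference in log2(CPM + 0.2) from the wild-type mean of its cell type, and the bar is the median of the 39 members. The medians of XEN libraries lie at -0.01, -0.48 and 1.83 in dXist 1 to 3 and between 1.14 and 1.80 in the 4 treated libraries, and those of dXist EpiSC at -0.77 and -0.93.

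With this spread, no member of the 37 tested was called between dXist and wild-type XEN by edgeR's quasi-likelihood test at a Benjamini-Hochberg adjusted p under 0.05. Of all 18393 genes 0.0217% were called, none of them higher. At an unadjusted p under 0.05 there were 7 members, 6 higher and 1 lower (10.7% of all genes in either direction), and DESeq2 called 2 (2.75% of all genes). Fold changes were positive in 31 of 37, with a median of 1.11 against 0.00 over all genes. Herc6 had a log2 fold change of 4.03 (SE 1.34, adjusted p = 0.389), Oas1a 5.02 (SE 1.80, adjusted p = 0.406), Isg15 3.55 (SE 1.55, adjusted p = 0.463) and Ifit2 -1.69 (SE 0.63, adjusted p = 0.415), all by edgeR's quasi-likelihood test. Without dXist library 3 the median of the members was -0.38 and fold changes were positive in 16 of 37, with Isg15 at 0.93 (SE 1.07) and Usp18 at -0.81 (SE 0.91) on the log2 scale. That fit called 1 member, Parp14, which was lower in dXist (31 and 33.4 CPM in the wild type, 9.35 and 9.01 CPM in dXist libraries 1 and 2), and 2.87% of all genes.

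Other genes of the pathway were counted in lists chosen with these data known. The transcription factor gene Irf1 was at 6.38 CPM in dXist library 3 and at 10 to 13.4 CPM in the other untreated XEN libraries. Interferon ligands were near the detection limit, with 8 matched genes that summed to between 0.0436 and 1.17 CPM in every library and to 0.499 CPM in library 3. The others of the 21 listed ligands, Ifnb1 and Ifng among them, were not analysed here. The receptor and kinase genes summed to 386 CPM in library 3 and to 348 to 502 CPM in the other untreated XEN libraries. Cxcl10, a chemokine induced by interferon, had at most 0.039 CPM in any untreated XEN library, library 3 included. Lists of receptors and kinases, sensing adaptors, negative regulators and NF-kB targets were tested in the fit of all 9 XEN libraries. Without a further term, none of their genes was called in a comparison within XEN. With the replicate number as a term, 1 NF-kB gene was called lower in dXist against the wild type. Without dXist library 3, 1 receptor or kinase gene was called higher and 1 negative regulator lower for Aza in dXist, and 1 NF-kB gene lower in dXist against the wild type. The feedback inhibitor Socs1 was at 2.03 CPM in library 3 against 1.48 to 3.62 CPM.

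Markers of other cell types were set beside library 3. The 10 leukocyte markers summed to 4.85 CPM in it, the lowest of the XEN libraries, with Itgam and Cd3e at 0. The 10 fibroblast markers summed to 273 CPM in library 3 and to 42.2 to 120 CPM in the other untreated XEN libraries. Of these 10, Fbn1 alone gave 269 CPM in library 3, while Col1a1, Col1a2, Col3a1 and Dcn were each below 0.4 CPM and Lum, Postn, Thy1 and Twist1 were at 0. Epiblast markers summed to 177 CPM in library 3, to 170 and 230.2 CPM in the wild type and to 47.7 and 47.9 CPM in dXist libraries 1 and 2, mostly Dnmt3b. The part of Fbn1 and Dnmt3b in the result was not tested.

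In wild-type XEN cells most members stood higher after Aza. Both treated libraries were above both untreated ones in 30 of 39 members (26.1% of all genes) and below in 2, Trim25 and Samhd1 (32.4%). Both treated libraries are total-like and both untreated ones polyA-like, so that inside XEN the treatment and the library type cannot be told apart. The treated libraries lay close together, with medians of 1.18 and 1.14 above the wild-type mean. Rtp4 went from 0.539 and 1.88 CPM untreated to 11.5 and 14 CPM treated, Usp18 from 0.337 and 2.08 to 9.4 and 11.4 CPM, and Isg15 from 0.236 and 1.44 to 9.73 and 10.5 CPM. Oas1a stood at 3.63 and 4.93 CPM after Aza, far under the 37.8 CPM of untreated dXist library 3. The sensors had higher levels as well, with Ddx58 at 27.4 and 31.6 CPM and Ifih1 at 2.47 and 1.99 CPM. Ddx60 had 39 counts treated and 3 untreated, a ratio of 49.1 with an exact 95% counting interval of 15.6 to 248.5.

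Of the 3 signalling factors, 2 lay above the untreated range after Aza. Stat2 was at 64.5 and 67.7 CPM after Aza, inside the untreated range of 49.4 to 68.4 CPM, and Irf9 at 53.3 and 53.7 CPM against 33.8 and 42.7 CPM. Irf7 was at 18.3 and 20.5 CPM against 4.35 and 8.58 CPM. All 3 guanylate-binding proteins lay above the untreated range: Gbp2 was at 2.8 and 4.09 CPM against 0.607 and 0.376 CPM, Gbp3 at 5.94 and 6.3 CPM against 0.978 and 0.786 CPM, and Gbp7 had 5 counts against 2. Ifit1 was at 3.63 and 3.88 CPM against 0.405 and 0.342 CPM. Ifitm3, which blocks fusion of viruses with the cell, was at 32.5 and 38.7 CPM against 5.46 and 5.23 CPM. The chemokine gene Cxcl10 stood at 0.824 and 1.89 CPM after Aza. The interferon ligands summed to 0.824 and 0.42 CPM. Of 11 NF-kB and inflammatory genes tested 10 had positive fold changes, with a median log2 fold change of 3.19, and 0 were called.

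**Figure D3:**
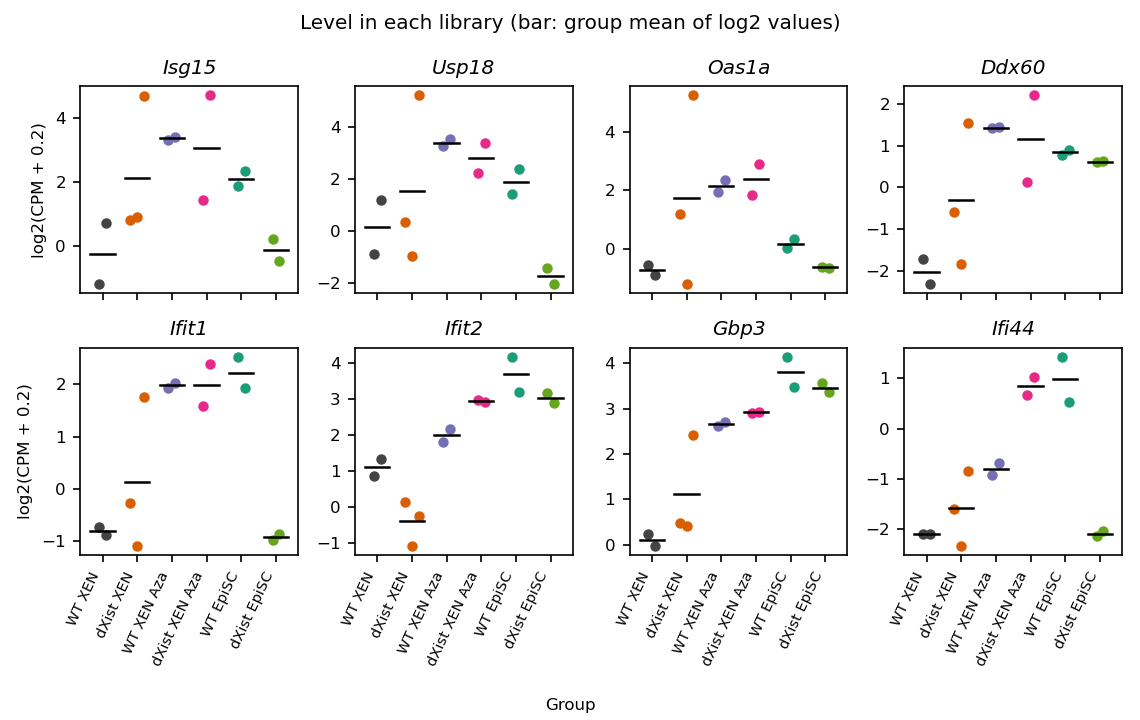
Level in log2(CPM + 0.2) of 8 members in every library, by group; points are libraries and bars the mean of the log2 values. In Isg15, Usp18, Oas1a and Gbp3 the highest untreated dXist XEN point is library 3, the 2 treated wild-type points lie close together above the untreated wild type, and Usp18, Ifit1 and Ifi44 are lowest of all groups or near it in dXist EpiSC.

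By edgeR's quasi-likelihood test on the 9 XEN libraries, no member of 37 was called for Aza in the wild type, while 0.582% of all genes were. At an unadjusted p under 0.05 there were 8, all higher (12.4% of all genes in either direction), and DESeq2 called 4 (3.51%). Fold changes were positive in 35 of 37, with a median of 1.74 against -0.04 over all genes. Gbp2 had a log2 fold change of 2.95 (SE 0.73, adjusted p = 0.159), Gbp3 2.94 (SE 0.87, adjusted p = 0.228), Ifit1 3.47 (SE 1.14, adjusted p = 0.272) and Xaf1, a pro-apoptotic factor, 1.53 (SE 0.56, adjusted p = 0.323). This fit estimates the spread from all 4 XEN groups, library 3 included. On the 4 wild-type libraries alone, a setting chosen after seeing the data, 7 of 31 members were called, all higher, against 4.20% of all genes higher (6.05% in either direction). Without dXist library 3 the count was 1, Gbp3, against 0.899% of all genes. With library type as a term in a fit of the 13 libraries, the median was 1.73. There 0 of 39 members were called (0.0048% of all genes), and 6 had an unadjusted p under 0.05. No XEN group holds both library types, so that term rests on the EpiSC libraries alone. This fit therefore cannot separate Aza from library type within XEN. In EpiSC, total-like libraries had lower members than polyA-like ones by a median of 0.30 (log2) in the wild type and 0.22 in dXist.

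In dXist XEN cells the outcome of Aza depended on library 3. Both treated libraries were above untreated libraries 1 and 2 in 31 of 39 members (29.9% of all genes), but above all 3 untreated libraries in 7 (20.5%) and below all 3 in 0 (20.9%). Treated library 1 was above the untreated library of the same number in 31 members (48.7% of all genes), and treated library 2 in all 39 (50.4%). All these libraries are polyA-like. Rtp4 went from 1.63 and 0.351 CPM in untreated libraries 1 and 2 to 42.7 and 31.3 CPM in treated ones, near the 50.2 CPM of untreated library 3. Oasl2 went from 6.72 and 3.9 to 62 and 48.7 CPM, beside 63.6 CPM in library 3. Mx2, a dynamin-like restriction factor, went from 0.699 and 0.507 to 11.3 and 10.9 CPM, beside 13.9 CPM. In these 3 genes the treated libraries reached about the level that library 3 had without Aza.

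The 7 members above all untreated libraries were Ifit2, Rsad2, Cmpk2, Gbp2, Gbp3, Ifi44 and Xaf1. As a share of the 39 this was no larger than the 20.5% of all genes. Cmpk2 had only 5 and 9 counts in the treated libraries and 4, 5 and 5 in the untreated ones. Ifit2 stood at 0.898, 0.273 and 0.641 CPM untreated and at 7.55 and 7.28 CPM treated, and Ifi44, an interferon-induced cytoplasmic protein, at 0.133, 0 and 0.356 CPM against 1.4 and 1.84 CPM. Rsad2 was at 0.2, 0 and 0.0356 CPM against 0.671 and 2.17 CPM. Of these 7, Gbp3 was over 4 times as high in untreated library 3 as in the other untreated dXist libraries, and Ifit2, Rsad2, Cmpk2 and Gbp2 did not exceed both of them there. Members also differed between the treated libraries. Isg15 was at 2.52 CPM in treated library 1 and 26 CPM in library 2, Bst2 at 18.1 and 93.7 CPM, and Ifi35 at 1.23 and 12.8 CPM, whereas Eif2ak2 went the other way with 236 and 109.7 CPM. Treated library 1 also stood apart outside the members: its XEN markers summed to 22231 CPM against 53791 CPM in treated library 2, and 22.9% and 27.8% of all genes lay over 2-fold above and below the wild-type mean, against 13.2% and 14.4% in library 2. The part of this in the differences between the treated libraries was not tested.

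By edgeR's quasi-likelihood test no member of 37 was called for Aza in dXist XEN, against 0.0761% of all genes. At an unadjusted p under 0.05 there were 5, all higher (26.8% of all genes in either direction), and DESeq2 called 2 (15.8%). Ifit2 had a log2 fold change of 3.61 (SE 0.65, adjusted p = 0.0608), Ifi44 3.26 (SE 1.09, adjusted p = 0.113), Rsad2 4.08 (SE 1.43, adjusted p = 0.124), Eif2ak2 1.65 (SE 0.72, adjusted p = 0.179) and Gbp2 1.36 (SE 0.60, adjusted p = 0.184). The median was 0.84 against -0.02 over all genes. Without untreated library 3 the median was 2.41, with 36 of 37 fold changes positive, and 10 members were called, all higher, against 1.57% of all genes higher (2.33% in either direction). They were Eif2ak2, Parp14, Mx2, Oasl2, Rtp4, Gbp3, Ifit2, Oas2, Ddx58 and Parp9. In that fit Rtp4 had a log2 fold change of 5.23 (SE 0.85, adjusted p = 0.0443) and Mx2 4.21 (SE 0.55, adjusted p = 0.0364). Without treated library 2 the median was -0.04 and 2 members were called, against 23.9% of all genes.

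The difference of the Aza effect between dXist and wild type was tested in the same fit. The count of members called was 0 of 37, against 0.245% of all genes, with 1 member at an unadjusted p under 0.05 (8% of all genes) and 0 by DESeq2 (1.19%). The median difference of log2 fold changes was -1.42 with library 3 and 0.17 without it. Usp18 had a difference of -4.08 (SE 2.38, adjusted p = 0.669) and of 0.15 (SE 1.21, adjusted p = 0.98) without library 3.

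In EpiSC the Xist deletion went with lower levels of most members. Both dXist libraries were below both wild-type ones in 25 of 39 (19.8% of all genes) and above in 2, Zbp1 and Bst2 (20.4%). Each EpiSC group held a polyA-like and a total-like library, so the genotypes could be compared within each type. The member was lower in dXist in both pairs for 29 (34.1% of all genes), higher in both for 3 (31.8%) and mixed for 7, with a median difference of -0.86 in the polyA-like pair and -0.83 in the total-like pair. Over all genes these medians were both -0.01.

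**Figure D4:**
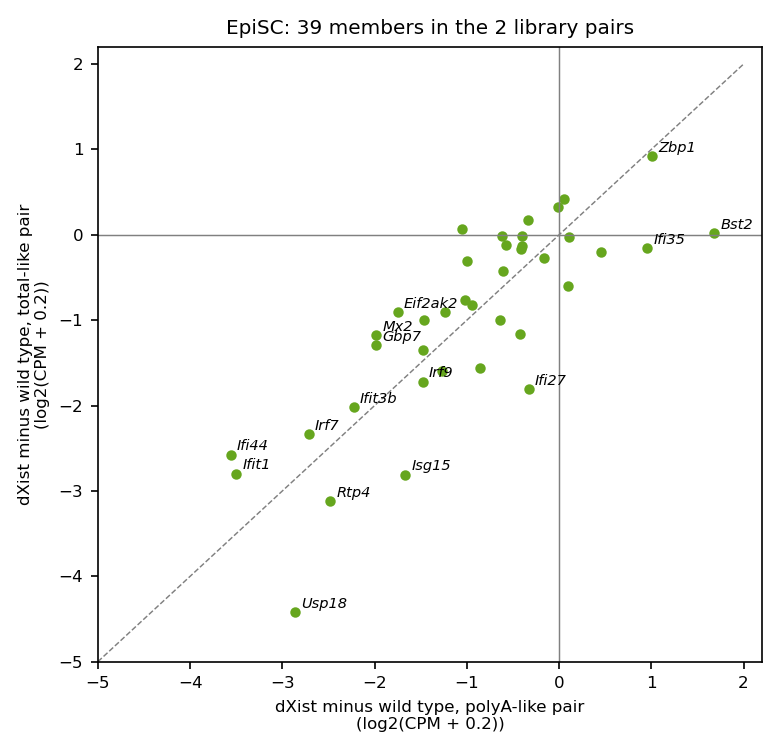
Difference dXist minus wild type in log2(CPM + 0.2) for each of the 39 members in EpiSC, in the polyA-like pair of libraries (horizontal axis) and the total-like pair (vertical axis); the dashed line marks equal differences. In 29 members the point lies at the lower left, with Usp18, Ifi44 and Ifit1 farthest out, and Zbp1 lies in the upper right.

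The largest folds were those of Ifi44 and Usp18. Usp18 stood at 2.49 and 5 CPM in wild-type EpiSC and at 0.168 and 0.0436 CPM in dXist, 35.4-fold lower by the means. Ifit1 stood at 5.55 and 3.61 CPM against 0.308 and 0.348 CPM, 14-fold lower. Ifi44 had 113 counts in the wild type and 2 in dXist, a ratio of 59 with an exact 95% counting interval of 16 to 493. For these 3 genes the groups lay far apart in both library types. Rtp4 was at 8.91 and 6.85 CPM against 1.43 and 0.61 CPM. Irf7 was at 2.4 and 2.78 CPM against 0.196 and 0.392 CPM, and Irf9 at 14.6 and 17.1 CPM against 5.1 and 5.05 CPM, while their partner Stat2 overlapped (25.9 and 14.6 CPM against 20.4 and 16.5 CPM). Isg15 was at 3.47 and 4.86 CPM against 0.952 and 0.523 CPM.

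Not all induced genes shared this. Gbp2 was at 33.5 and 27.3 CPM in wild-type cells against 33.3 and 34.2 CPM in dXist, and Herc6 at 14.7 and 8.38 CPM against 15.3 and 11.2 CPM. Both overlapped between genotypes. The guanylate-binding protein Gbp7 by contrast was at 19.5 and 9.77 CPM against 4.79 and 3.88 CPM. Zbp1 was at 2.14 and 2.08 CPM in wild-type cells against 4.51 and 4.14 CPM in dXist. Bst2 was at 18.1 and 41.3 CPM against 58.4 and 41.8 CPM. Its log2 difference was 1.68 in the polyA-like pair and only 0.018 in the total-like pair. The chemokine Cxcl10 was at 5.06 and 6.07 CPM against 10.5 and 8.02 CPM, and Irf1 at 49.6 and 67.1 CPM against 71.9 and 82.3 CPM, so that both were also higher in dXist in each library type.

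By edgeR's quasi-likelihood test without a term for library type, 0 of 36 members were called in EpiSC, and 0% of all genes. At an unadjusted p under 0.05 there were 17 members, 1 higher and 16 lower (10.2% of all genes in either direction), and DESeq2 called 8, all lower (2.87%). The fit has 2 residual degrees of freedom. Ifit1 had a log2 fold change of -3.75 (SE 0.48, adjusted p = 0.124), Ifi44 -5.55 (SE 0.80, adjusted p = 0.148), Usp18 -5.02 (SE 0.82, adjusted p = 0.175), Rtp4 -2.92 (SE 0.50, adjusted p = 0.190) and Irf9 -1.62 (SE 0.29, adjusted p = 0.2). The median was -1.06 against 0.00 over all genes. With the library type as a term, which here is the replicate number, 17 members were called, Bst2 higher and 16 lower, against 4.91% of all genes higher and 6.53% lower (11.4% in all). That fit leaves 1 residual degree of freedom. The 16 were Usp18, Ifit1, Ifi44, Rtp4, Irf7, Isg15, Ifit3b, Gbp7, Irf9, Eif2ak2, Cmpk2, Mx2, Ddx58, Oasl2, Ifit3 and Xaf1. In that fit of edgeR's quasi-likelihood test, Usp18 had a log2 fold change of -4.79 (SE 0.56, adjusted p = 7.9e-15) and Bst2 of 0.88 (SE 0.30, adjusted p = 0.0372). The higher level of Bst2 lay almost wholly in the polyA-like pair. Usp18 had 6 counts and 1 count in the dXist libraries. With 1 residual degree of freedom, its p depends on the spread estimated over all genes. With library type as a term in a fit of all 13 libraries instead, 0 of 39 members were called, against 0.00959% of all genes. There, 7 members had an unadjusted p under 0.05, all lower, and the median was -1.07.

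Fibroblast markers went with this comparison. The 10 summed to 914 and 729 CPM in wild-type EpiSC and to 266 and 191 CPM in dXist, with Col1a1 at 384 and 207 CPM against 168 and 98.4 CPM and Col3a1 at 139 and 142 CPM against 5.8 and 4.53 CPM. All 10 had negative log2 fold changes, with a median of -1.92, and Lum was at 0 in both dXist libraries. None of the 10 was called without a term for library type. With the replicate number as that term, 9 of the 10 were called lower, against 6.53% of all genes. The 10 leukocyte markers summed to 10.4 and 9.17 CPM against 11.4 and 12.5 CPM. The part of these markers in the result was not tested. Of the other pathway genes, 0 of 9 receptors and kinases, 0 of 13 sensing adaptors and kinases and 0 of 12 negative regulators were called, and with library type as a term 1, 2 and 0 were lower.

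The effect of the Xist deletion was set against that in XEN. No member of 39 was called for the difference between cell types by edgeR's quasi-likelihood test, against 0.0101% of all genes. At an unadjusted p under 0.05 there were 12, all lower in EpiSC (10.3% of all genes in either direction), and DESeq2 called 1 (2.27%). The median difference was -2.18 and was -1.03 without dXist XEN library 3. Ifi44 had a difference of -7.67 (SE 2.03, adjusted p = 0.307) and Ifit1 of -5.59 (SE 1.51, adjusted p = 0.308), and without library 3 these were -6.46 (SE 1.92, adjusted p = 0.104) and -4.01 (SE 0.96, adjusted p = 0.0591).

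Members were called in both directions between wild-type EpiSC and XEN cells, at a share close to that of all genes. Of 39, 10 were higher and 3 lower in EpiSC at an adjusted p under 0.05, against 16.8% of all genes higher and 14.1% lower (30.8% in all). The libraries did not overlap for 26 members that were higher in EpiSC (34.3% of all genes) and 10 that were lower (31.0%). All 3 guanylate-binding proteins rose: Gbp2 was at 33.5 and 27.3 CPM in EpiSC and 0.607 and 0.376 CPM in XEN (log2 fold change 5.99, SE 0.51, adjusted p = 0.000107 by edgeR's quasi-likelihood test). Gbp7 had 886 counts against 2, a ratio of 465 with an exact 95% counting interval of 128 to 3843. Rsad2 and its neighbour Cmpk2 were near or at 0 in XEN. Rsad2 stood at 7.29 and 4.95 CPM in EpiSC and had no count in XEN, at least 120.2-fold higher, and Cmpk2 at 4.66 and 4.49 CPM against 0.101 and 0.171 CPM. Zbp1, Herc6, Ifit1, Ifit2 and Ifi44 were the other members higher in EpiSC.

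The 3 lower members were Trim25, Ifi27 and Xaf1. Trim25 fell from 233 and 232 CPM in XEN to 0.376 and 0.0926 CPM in EpiSC, 993-fold by the means (log2 fold change -9.77, SE 0.77, adjusted p = 8.8e-05 by edgeR's quasi-likelihood test). Ifi27 fell from 19.1 and 26.6 CPM to 1.71 and 3.7 CPM (adjusted p = 0.0132 by edgeR's test), and Xaf1 from 15.3 and 16.6 CPM to 3.41 and 3.33 CPM (adjusted p = 0.0247). All 3 signalling factors had lower levels in EpiSC without passing the test: Stat2 was at 25.9 and 14.6 CPM against 49.4 and 68.4 CPM in XEN. Mx1 overlapped between the cell types, with 0.347 and 0.232 CPM against 0.303 and 0.342 CPM. The count of called members was 13, and was 26 without dXist XEN library 3, which enters the estimate of spread, against 39.2% of all genes. Fibroblast markers also differed, with 8 of 10 called higher in EpiSC, and their part in the result was not tested.

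**Figure D5:**
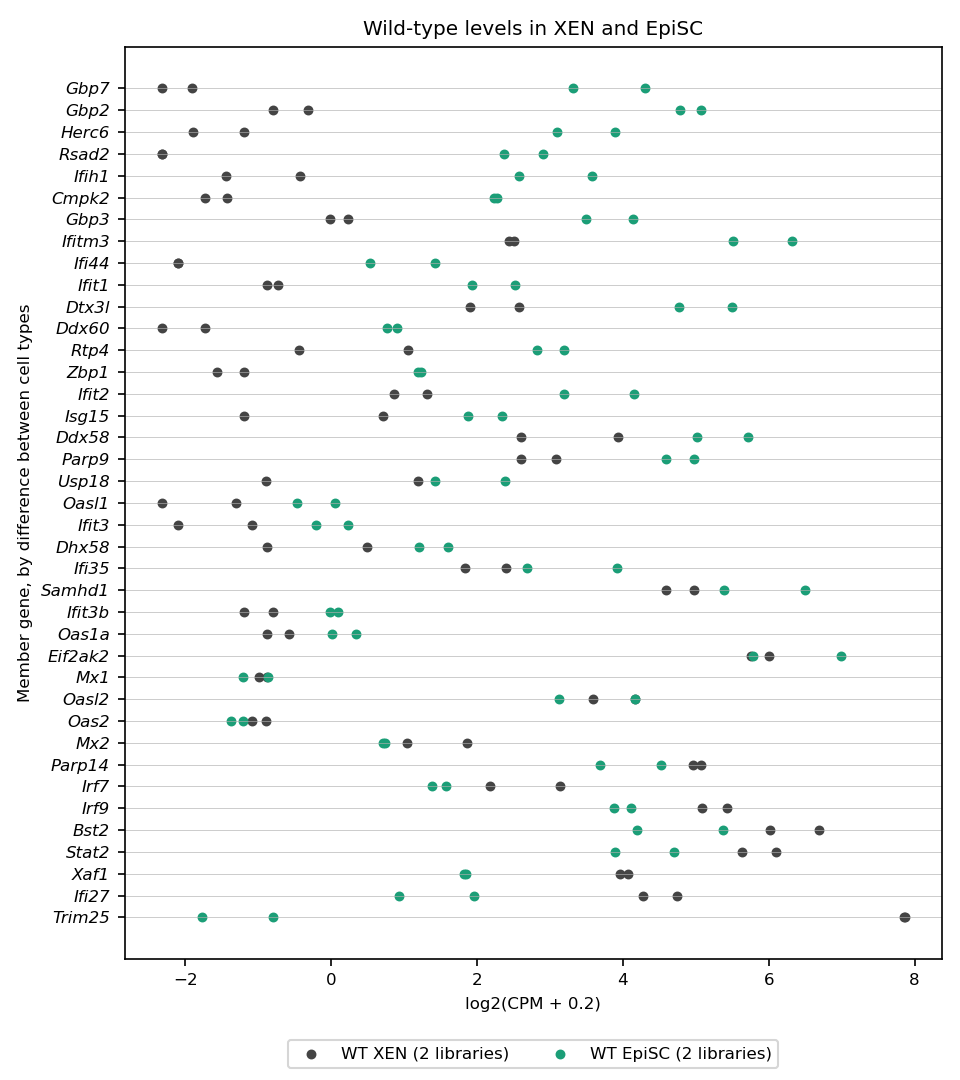
Level of each member in log2(CPM + 0.2) in the 2 wild-type XEN (grey) and 2 wild-type EpiSC libraries (green), ordered by the difference between cell types. Trim25, Ifi27 and Xaf1 lie lowest in the order and the guanylate-binding proteins Gbp7 and Gbp2 at its top, and 26 members have both EpiSC points to the right of both XEN points.

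The motif groups were read against the patterns above. They rest on exact matches to the core, and looser forms were not searched. Of the 12 members with an ISRE match before the start, 9 held over 2 times the level of the other dXist libraries in XEN library 3, as did 11 of the 17 without a match. For Aza in wild-type XEN, 9 of 12 and 13 of 17 had both treated libraries above both untreated ones. In EpiSC 8 of 12 and 10 of 17 had both dXist libraries below the wild type. Ddx58, which has no match in the window printed above, stood at 5.87 and 15.1 CPM in wild-type XEN and at 58.2 CPM in library 3. Isg15, which has 3, stood at 0.236 and 1.44 CPM in wild-type XEN and at 26 CPM in library 3. CPM is not scaled by gene length (7050 exonic bases in Ddx58, 756 in Isg15), so these levels cannot be compared between the genes.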

How the data were processed

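RNA from 13 libraries in 6 groups, placed by the labels, was analysed. Per the labels' protocols RNA was isolated with Trizol and libraries were made with NEBNext Ultra or TruSeq stranded kits, with no word on which library had which. The authors deposited a table of raw read counts per gene, and the submitters' processing notes name GRCm38 and the tools featureCounts 2.0.1, STAR 2.7.9a and FastQC. The sources used here do not name the strand setting, the treatment of multi-mapping reads or the annotation release. GENCODE vM21 gave symbols to 38240 of 38377 identifiers.

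Counts were tested in R 4.3.3 with edgeR 4.0.16 (TMM, filterByExpr, robust quasi-likelihood F test, Benjamini-Hochberg over all tested genes, called under 0.05). One model held the 9 XEN libraries (5 residual degrees of freedom), the next all 4 of EpiSC (2), and the last every untreated library (5). On simulated counts with 200 changed genes the code was tested for recovery. Alternatives were DESeq2 1.42.0, RLE scaling, no filter, library type, a replicate block and leaving out each library. The filter on low counts left out 2 members in XEN (Ifit3, Cmpk2) and 3 in EpiSC (Mx1, Oas2, Trim25). Levels by library are CPM after TMM over the 13 libraries, and differences between libraries used 0.2 CPM as pseudocount on genes with a mean of at least 0.1 CPM. A ratio against 1 to 3 counts has an exact 95% interval, and a fold against 0 counts uses 3 counts over the group. Both cover counting error only.

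The members and lists were chosen with earlier results of these data known. Members named with a fold change and adjusted p are, for each comparison, those with the smallest p, up to 5 or up to 10 where calls were made, with others chosen after their values were seen.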

Additional observations from a re-analysis of the deposited data

How the results depend on the processing

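Shares in brackets after counts of members are those of all genes called in either direction in the same fit. For dXist in XEN the 0 called members became 2 with DESeq2 (2.75%) and 7 with no filter on low counts (1.92%). The replicate block gave 1 (2.00%) and a median of -0.38. In it library 3, the only replicate of that number, carries no weight. Leaving out a library gave medians of -0.38 (without dXist library 3) to 1.65. For Aza in the wild type the count was 4 with DESeq2 (3.51%) and 6 with no filter (2.09%). On the 4 wild-type libraries it was 7 (6.05%), and leave-one-out fits gave medians of 1.52 to 2.22. For Aza in dXist it was 2 with DESeq2, 4 with no filter, 1 with library type and 5 with the replicate block (median 2.53), and leave-one-out fits gave 0 to 10 calls and medians of -0.0383 (without treated library 2) to 2.41. For the difference of the Aza effects the count was 2 with no filter (0.944%), and the block gave a median of 0.10. Leave-one-out fits gave medians of -1.93 to 0.17 (without dXist library 3). Without library 3 Usp18, at -5.81 to -3.31 on leaving out any other library, turned to 0.15.

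For dXist in EpiSC the count was 8 with DESeq2 (2.87% of all genes) and 11 with no filter (2.23%). It was 17 with the replicate block (11.4%) and 0 with library type over 13 libraries (0.00959%). Leave-one-out fits gave medians of -1.12 to -0.74. For wild-type EpiSC against XEN the 13 became 24 with no filter and 25 with the block, and 9 to 26 on leaving out a library (medians 1.65 to 2.92). For the difference of the dXist effects the count was 1 with DESeq2 (2.27%) and 9 with no filter (1.76%). The block gave a median of -0.73, and leave-one-out fits gave medians of -2.70 to -1.03. The labels do not say that replicate numbers pair libraries: deviations of same-numbered libraries from their group means correlated at -0.16 to 0.11 within XEN and at 0.80 in EpiSC, where the number follows the library type. RLE scaling moved no count by over 1.5 times. Where 1 library of a group remained, it is assumed to vary like the other groups. The causes were not tested. Depth limits members under 3 counts, at 0.495 CPM in the shallowest library.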
